A study of Mus musculus with 12 samples.

Results

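The genes described here encode the RAS, RAF, MEK and ERK proteins of the classical mitogen-activated protein kinase cascade: the GTPases Hras and Nras, the RAF kinases Araf and Braf, the MEK kinases Map2k1 and Map2k2, and the ERK kinase Mapk3. They were taken by name, not by a rule on their values, but with earlier results of these data known. They are 7 of the 55487 Ensembl identifiers in the table, and the other RAS, RAF and ERK genes are not analysed here. All 7 had enough reads to test. Bulk RNA-seq profiles of 12 mouse melanoma tumors were compared, 6 of genotype BrafCA;Cdkn2af/f, called wild type below because Arf6 is intact, and 6 of genotype BrafCA;Cdkn2af/f;Arf6f/f, called Arf6-null. Every tumor therefore carries the BrafCA allele, which Cre recombinase switches to an oncogenic form, and floxed Cdkn2a, a tumor suppressor gene. Arf6 encodes a small GTPase of membrane traffic. The Cre driver, the ages of the mice and whether the tumors came from separate animals are not stated in the labels. The p-values below treat the tumors as independent and rest on the spread among them, which may in part be technical. If some tumors came from the same animal they are not independent, and the p-values may be too small. The library numbers in the labels run from 1 to 6 in wild type and from 19 to 24 in Arf6-null, so genotype cannot be told apart from anything tied to library order. Tumor numbers in the labels are 5526 to 7657 in wild type, apart from replicate 5 at 20681, and 19836 to 20570 in Arf6-null. What the tumor numbers stand for is not stated, and they too nearly follow genotype.

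In the cascade, growth factor receptors load RAS with GTP at the membrane. RAS then recruits RAF kinases, RAF phosphorylates MEK and MEK phosphorylates ERK, which acts on many cytoplasmic and nuclear substrates. In melanoma the cascade is often driven by mutant BRAF, and its activity is controlled mainly by phosphorylation and GTP loading, which mRNA counts do not measure.

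Library totals ran from 21007954 to 45688253 counts. Arf6 was lower in every Arf6-null tumor, at 84.2 to 147 CPM (the gene's count relative to the scaled library total) with Arf6 intact and 12.2 to 22.5 CPM without it (edgeR adjusted p = 0.000101). Several defining pigment cell genes were near or at 0 in both genotypes. Mlana had 0 counts in every library, Tyr and Slc45a2 at most 2, Dct, Tyrp1 and Oca2 at most 1 and Sox10 at most 33. Pmel was at 0.331 to 1.28 CPM. Others of the 14 pigment cell markers were expressed: Mitf at 8.95 to 30.1 CPM, Ednrb at 5.52 to 33.8, Gpnmb at 6.46 to 116, Mlph at 2.72 to 22.7, Rab27a at 4.52 to 16.0 and Kit at 1.22 to 23.7. The 14 summed to 54.7 to 156 CPM in wild-type and 58.9 to 180 CPM in Arf6-null tumors. Marker genes of skeletal muscle, 19 in all and none at 0 throughout, summed to 50.6 to 4344 CPM in wild-type and 11.001 to 117 CPM in Arf6-null tumors, with wild-type replicates 3, 4 and 5 the highest. Mast cell markers summed to 77.0 to 930 CPM and 9.31 to 166 CPM, and fibroblast markers to 6674 to 23803 CPM and 2316 to 16039 CPM. In bulk samples fewer cells of a type and less RNA per cell cannot be told apart.

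None of the 7 genes passed the test between genotypes. By edgeR 0 of 7 had an adjusted p under 0.05, against 1.15% of the 16225 genes tested (0.586% higher and 0.561% lower in Arf6-null tumors), and 0 of 7 passed with DESeq2, against 11% of all genes by that tool, or with limma-voom, against 5.74%. At an unadjusted edgeR p under 0.05 there was 1 of 7, Map2k1, against 23.4% of all genes. No gene of the 7 had ranges that were apart between genotypes, against 2.36% of all genes. The log2 fold changes, Arf6-null over wild type, lay between -0.03 and 0.49. Of the 7, 6 were positive, against 7660 of the 16225 genes tested. Their median was 0.18, and that of all tested genes was -0.03.

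**Figure D1:**
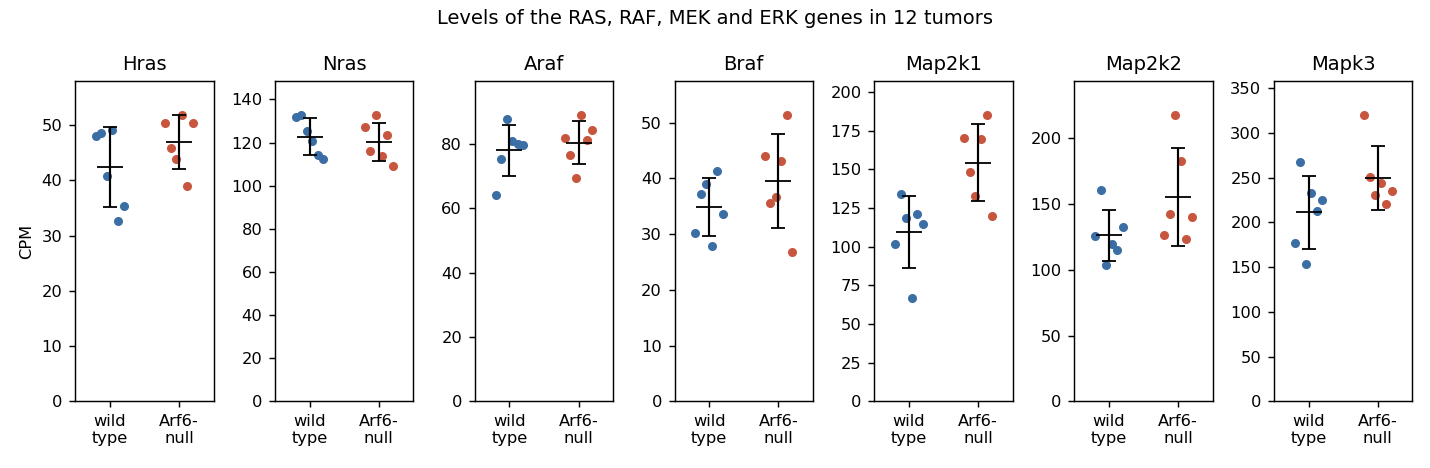
CPM of each gene (y axis, from 0) in the 6 wild-type (blue) and 6 Arf6-null (red) tumors; each point is a tumor, and the black bars are the mean and SD. The ranges of the genotypes overlap for all 7 genes, least for Map2k1, where 4 of 6 Arf6-null tumors lie above the highest wild-type tumor.

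Neither RAS gene passed the test between genotypes. Hras, on chromosome 7 (141189105 to 141194005, minus strand, GRCm38), encodes a GTPase that is held at the membrane by farnesyl and palmitoyl groups. Its lowest, median and highest levels were 32.6, 44.4 and 49.1 CPM in wild-type and 39.1, 48.1 and 51.8 CPM in Arf6-null tumors. In wild type replicates 1, 2 and 4 lay at 48.0 to 49.1 CPM and the other 3 were lower, and 3 of 6 Arf6-null tumors were above the highest wild-type tumor. The log2 fold change was 0.14 (SE 0.12, 95% interval -0.12 to 0.41, edgeR adjusted p = 0.501).

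Nras, on chromosome 3 (103058285 to 103067914, plus strand), encodes the RAS protein most often mutated in melanomas that lack a BRAF mutation. Its levels were 112, 123 and 133 CPM (lowest, median, highest) in wild type and 109, 120 and 133 CPM in Arf6-null tumors, so the ranges were nearly the same. It varied least of the 7 genes, with a coefficient of variation of 7.03% in wild type and 7.37% in Arf6-null tumors. Between genotypes Nras had a log2 fold change of -0.03 (SE 0.077, 95% interval -0.20 to 0.14, edgeR adjusted p = 0.852). As a fold, that interval runs from 0.872 to 1.10.

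Of the RAF genes, Araf lies on chromosome X (20797814 to 20860519, plus strand) and encodes the RAF kinase with the weakest catalytic activity. Its levels were 64.1, 79.8 and 87.9 CPM with Arf6 intact and 69.4, 81.7 and 89.0 CPM without Arf6. The wild-type tumor at the lower end was replicate 1, and the highest of the wild type was replicate 3. For Araf the log2 fold change came to 0.04 (SE 0.090, 95% interval -0.15 to 0.24, edgeR adjusted p = 0.801).

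Braf, on chromosome 6 (39603237 to 39725463, minus strand), is the gene engineered in every tumor. Its levels were 28.0, 35.4 and 41.4 CPM with Arf6 intact and 26.8, 39.8 and 51.3 CPM without Arf6. Arf6-null tumors held both the highest and the lowest value of all 12, in replicates 5 and 6. Its log2 fold change was 0.18 (SE 0.15, 95% interval -0.15 to 0.52, edgeR adjusted p = 0.503). The counts cover the whole gene and do not tell the BrafCA allele from an unmodified one. Of the exon bases of Braf, 1.1% also belong to Ndufb2 on the other strand, and a copy of 205 bases in Gm18189, 95.1% identical, had at most 2 counts in any library.

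Of the MEK genes, Map2k1 had the largest log2 fold change of the 7 genes, in the edgeR fit and in each of the 22 alternative fits. Map2k1, which encodes MEK1, lies on chromosome 9 (64185770 to 64253631, minus strand). Its levels were 66.9, 117 and 134 CPM with Arf6 intact and 120, 159 and 185 CPM without Arf6. All 6 Arf6-null tumors were above the wild-type median and 4 were above the highest wild-type tumor, while replicates 3 and 6, at 133 and 120 CPM, lay within the wild-type range. Wild-type replicate 4 was the lowest of all tumors. The means were 110 ± 23.4 and 154 ± 24.96 CPM (SD, n = 6 each), a 1.41-fold difference. The log2 fold change was 0.49 (SE 0.16, 95% interval 0.14 to 0.85) with an edgeR adjusted p = 0.107, so this difference did not pass over all genes, among which it ranked 1545 by p. The interval is for this gene alone and is not adjusted for the number of genes. DESeq2 gave an adjusted p = 0.0537 and limma-voom one of 0.0603.

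Map2k2, which encodes MEK2, lies on chromosome 10 (81105915 to 81133975, plus strand). Its levels were 104, 122 and 161 CPM with Arf6 intact and 123, 141 and 217 CPM without Arf6. Arf6-null replicates 3 and 4 were above every wild-type tumor, and the other 4 were within the wild-type range. Its log2 fold change was 0.30 (SE 0.16, 95% interval -0.04 to 0.64, edgeR adjusted p = 0.267).

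Mapk3, which encodes ERK1, the kinase at the end of the cascade, lies on chromosome 7 (126759601 to 126765819, plus strand) and had the highest CPM of the 7 genes. Its levels were 153, 219 and 268 CPM with Arf6 intact and 220, 240 and 320 CPM without Arf6. All 6 Arf6-null tumors exceeded the wild-type median, but 1 of them, replicate 1, was above the highest wild-type tumor. The log2 fold change was 0.24 (SE 0.14, 95% interval -0.06 to 0.55, edgeR adjusted p = 0.321).

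**Figure D2:**
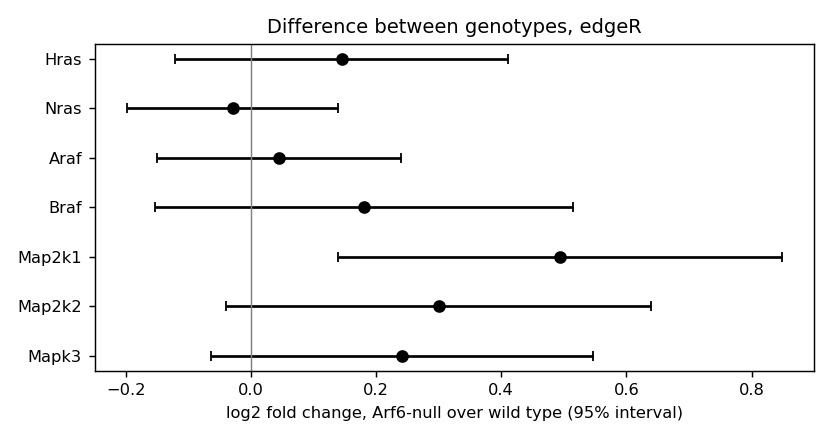
Log2 fold change of each gene, Arf6-null over wild type (x axis), as the edgeR estimate (point) with its 95% interval (bar). The interval of Map2k1, 0.14 to 0.85, lies above 0 and those of the other 6 genes include 0; no gene passed after adjustment over all tested genes.

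The counts behind these values were 760 to 10362 per gene and library. Counting error at the smallest count, 760 for Braf, is 3.63%, and Braf varied by 14.95% between wild-type and 21.4% between Arf6-null tumors. With the skeletal muscle score as a covariate the log2 fold changes were 0.01 for Hras, -0.12 for Nras, 0.18 for Araf, 0.26 for Braf, 0.42 for Map2k1, 0.10 for Map2k2 and 0.06 for Mapk3. Those of Nras, Araf and Braf thus lay farther from 0 than without the covariate, and those of the other 4 genes nearer to 0. The fit was also run without wild-type replicates 3, 4 and 5, the libraries highest in muscle markers. It gave a log2 fold change of 0.10 for Hras, -0.05 for Nras, 0.15 for Araf, 0.24 for Braf, 0.41 for Map2k1 (edgeR adjusted p = 0.281), 0.17 for Map2k2 and 0.17 for Mapk3.

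Levels were next compared between genes per kilobase of annotated exon. Mapk3 was highest, at 102 ± 18.5 CPM per kb (SD over the 12 tumors), followed by Map2k1 at 38.9 ± 9.68, Map2k2 at 24.9 ± 5.66, Nras at 22.8 ± 1.58, Araf at 12.1 ± 1.09, Hras at 11.96 ± 1.70 and Braf at 2.69 ± 0.515 CPM per kb. Mapk3 exceeded Map2k1 in 12 of 12 tumors, Map2k1 exceeded Map2k2 in 11, Nras exceeded Araf in 12 and Hras exceeded Braf in 12. By exon length Map2k2 and Nras could not be ordered, since Map2k2 was higher in 6 of 12, and neither could Araf and Hras, with Araf higher in 4 of 12. The order depends on the length used, because annotated exons of Braf add up to 13862 bases and its coding part to 2528. Per kilobase of coding sequence Nras, at 205 ± 14.2, stood beside Mapk3, at 189 ± 34.2, and above it in 8 of 12 tumors, while Braf remained lowest at 14.7 ± 2.83 CPM per kb. By this length Hras exceeded Araf in 12 of 12 tumors. The lowest Nras value, 183 CPM per kb, was above the highest of Map2k2, 141.

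Ratios of related genes within a library do not depend on how libraries are scaled. Per kilobase of exon, the median ratio of Hras to Nras was 0.492 in wild type (range 0.408 to 0.582) and 0.565 in Arf6-null tumors (0.452 to 0.661). The median ratio of Araf to Braf was 4.63 (4.10 to 6.14) and 4.19 (3.36 to 6.68), so Araf exceeded Braf in every tumor. The median ratio of Map2k1 to Map2k2 was 1.42 (0.937 to 1.91) and 1.65 (1.02 to 2.50). Each pair of ranges overlapped. The size of a ratio depends on the length used. Per kilobase of coding sequence the medians in wild-type and Arf6-null tumors were 0.293 and 0.336 for Hras to Nras. They were 2.76 and 2.50 for Araf to Braf, and 1.11 and 1.29 for Map2k1 to Map2k2. Mean log2 ratios differed between genotypes by 0.19, -0.12 and 0.23, and none of the 3 differences passed a two-sided exact permutation test over all splits (p = 0.154, 0.457 and 0.364; adjusted over the 3 ratios, 0.457 for each).

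**Figure D3:**
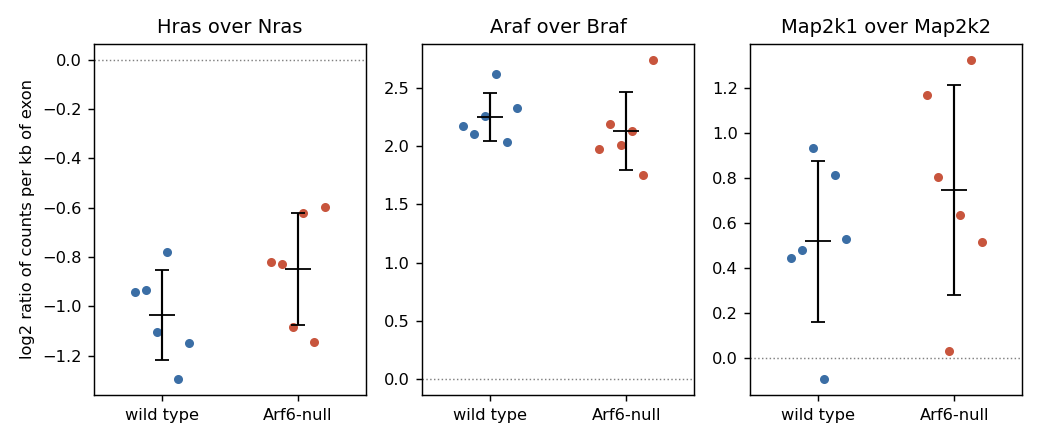
Log2 ratio of counts per kilobase of exon of related genes within each library (y axis; each panel has its own scale, and the dotted line marks equal levels), by genotype; points are tumors, black bars the mean and SD. The genotypes overlap in every panel, and Araf over Braf is above 0 in all 12 tumors.

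Among the tumors, levels of Braf and Map2k1 went together. Log2 CPM values were taken as deviations from the mean of the genotype, so that a difference between genotypes adds nothing, and all 21 pairs of the 7 genes were correlated over the 12 tumors. For Braf and Map2k1 Pearson's r was 0.83 (permutation p = 0.0001 within genotypes, adjusted over 21 pairs 0.0021) and Spearman's rho was 0.86 (permutation p = 0.0015, adjusted 0.0315). Without the 2 tumors farthest from the median of Braf r was again 0.83. Within wild-type tumors r was 0.83 and rho 0.83 (n = 6, exact permutation p = 0.0139 and 0.0583), and within Arf6-null tumors r was 0.95 and rho 0.94 (n = 6, exact permutation p = 0.00417 and 0.0167). Over both genotypes r was between 0.81 and 0.91 with each library left out in turn, and 0.94 without the 3 wild-type libraries highest in muscle. The pair was picked from the 21 on these same tumors. The p-values within each genotype are not adjusted for that and are no separate support. No other pair passed: r ran from -0.58, for Nras and Araf (permutation p = 0.0598, adjusted 0.628; rho -0.63, permutation p = 0.0424, adjusted 0.330), to 0.29, for Hras and Nras (permutation p = 0.365, adjusted 0.883; rho 0.22, permutation p = 0.504, adjusted 0.875). The pairs share libraries and their scaling. Among 10116 protein-coding genes with a mean of at least 10 CPM, Map2k1 held place 51 by r with Braf, and 76 genes had an r of at least 0.8 with Braf. In turn Braf held place 20 by r with Map2k1, and 31 genes had an r of at least 0.8 with Map2k1.

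**Figure D4:**
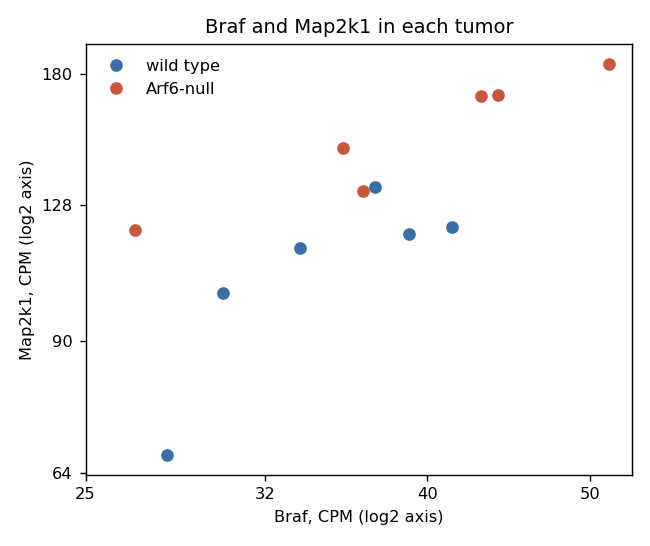
CPM of Braf (x axis) against CPM of Map2k1 (y axis) in each of the 12 tumors, both on log2 axes; blue points are wild-type and red points Arf6-null tumors. Levels of Map2k1 tend to be higher where those of Braf are within each genotype, from wild-type replicate 4 (28.0 and 66.9 CPM) to Arf6-null replicate 5 (51.3 and 185 CPM).

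Since these 2 genes varied together, the 250 bases before their start sites are shown. They are from RefSeq (GRCm38.p6, where 6 of the 7 genes matched by symbol), written 5′ to 3′ on the minus strand that each gene is read from, at chr6:39725464-39725713 for Braf and chr9:64253606-64253855 for Map2k1. Capitals mark matches to the GC box (GGGCGG) and to the cyclic AMP response element (TGACGTCA) on either strand; no match of one overlaps a match of the other.
Braf: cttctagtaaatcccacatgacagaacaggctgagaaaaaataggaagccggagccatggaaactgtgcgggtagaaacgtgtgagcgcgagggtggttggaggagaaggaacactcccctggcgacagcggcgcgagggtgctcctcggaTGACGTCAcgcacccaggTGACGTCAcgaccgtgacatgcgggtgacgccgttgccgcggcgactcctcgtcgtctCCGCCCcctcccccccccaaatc
Map2k1: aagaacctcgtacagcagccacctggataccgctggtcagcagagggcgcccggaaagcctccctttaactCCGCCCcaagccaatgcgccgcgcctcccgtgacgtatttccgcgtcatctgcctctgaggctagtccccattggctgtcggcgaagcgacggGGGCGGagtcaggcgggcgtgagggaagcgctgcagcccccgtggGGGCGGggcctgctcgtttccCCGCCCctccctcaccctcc
Braf had 1 GC box match and 2 matches to the cyclic AMP response element, and Map2k1 had 4 GC box matches and 0 of the response element. Over all 32851 RefSeq promoter windows of this length, 32.7% held a GC box match and 1.55% a response element match. GC content was 62.0% in Braf and 68.4% in Map2k1, against a median of 52.4%. In the other matched genes it was 65.6% for Hras, 59.6% for Map2k2, 51.2% for Araf and 48.4% for Nras. Matches to the GC box numbered 3 in Hras, 1 in Map2k2, 0 in Araf and 2 in Nras, so they were not particular to Braf and Map2k1. None of these other genes held a response element match. Further motifs were searched as well, so the 2 described here are a selection. A match describes the letters only and shows no binding.

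The genes most alike to each cascade gene were taken as the 3 with the highest Pearson's r over the 12 tumors, on the same genotype-centred log2 CPM, out of the 10116 genes; as the highest of many they are given as a description, with no test. For Hras they were Rita1, Dcun1d1 and Gatad1 (r = 0.96, 0.95 and 0.94), and for Nras Ccbe1, Ttc39c and Fam114a2 (0.93, 0.89 and 0.88). For Araf they were Tspyl2, Taok2 and Glyr1 (0.86, 0.86 and 0.85), of which Tspyl2 had a Spearman's rho of 0.48. For Braf they were Avl9, Gsk3b, a kinase of Wnt and insulin signalling, and Amn1 (0.95, 0.94 and 0.91). For Map2k1 they were Sec23ip, Lpin2 and Tgoln1 (0.93, 0.90 and 0.89), and for Map2k2 Mfsd12, Dctn2 and Tmem259 (0.97, 0.95 and 0.95). For Mapk3 they were the ribosomal protein gene Rpl36, the complex I subunit gene Ndufa11 and Sdhaf1, an assembly factor of succinate dehydrogenase (0.92, 0.91 and 0.90). No gene was in the lists of 2 cascade genes.

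The wider pathway was covered by 9 lists of 151 genes, of which 141 were tested. By edgeR 2 of them passed, both higher in Arf6-null tumors; this is 1.42% of them, near the 1.15% of all tested genes. DESeq2 called 19 of 146 (13%), against 11% of all genes, and limma-voom 9 of 141 (6.38%), against 5.74%, so these shares too were near those of all genes. The counts by these tools for single lists below are to be read against the same shares. Counts at an unadjusted edgeR p under 0.05 are to be read against 23.4% of all tested genes. Counts of positive log2 fold changes are to be read against 7660 of all 16225 tested genes. The lists are short, and no list was tested as a set. In the list of RAS lipid modification and transport, 1 of 12 genes rose and 11 did not pass; 8 had a positive log2 fold change, the median was 0.05, 6 had an unadjusted edgeR p under 0.05, DESeq2 called 3 and limma-voom 2. The gene that rose was Fntb, the beta subunit of the farnesyltransferase that attaches the lipid anchor to RAS. Its levels were 19.8, 21.3 and 26.8 CPM (lowest, median, highest) in wild type and 28.7, 32.6 and 38.2 CPM in Arf6-null tumors, with no overlap (log2 fold change 0.59, SE 0.10, edgeR adjusted p = 0.0292). Among 8 kinases that ERK activates, Rps6ka4, which encodes MSK2, a kinase of histones and transcription factors, rose and 7 did not pass. The other 7 all had negative log2 fold changes, and the median of the list was -0.21; 3 of the 8 had an unadjusted edgeR p under 0.05, DESeq2 called Rps6ka4 higher and Rps6ka1 lower, and limma-voom called Rps6ka4 alone. Rps6ka4 levels were 60.9, 76.2 and 79.6 CPM with Arf6 intact and 83.5, 113.8 and 121.5 CPM without Arf6, again with no overlap (log2 fold change 0.54, SE 0.11, edgeR adjusted p = 0.0466).

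Both calls were lost when any of several libraries was left out alone, while both estimates stayed positive throughout. With each library left out in turn, log2 fold changes were 0.54 to 0.65 for Fntb and 0.49 to 0.60 for Rps6ka4. Without wild-type replicate 1, 3, 4 or 6 or Arf6-null replicate 1, 2 or 4 neither passed, and over all fits that leave out 1 library the edgeR adjusted p was 0.0188 to 0.0709 for Fntb and 0.0347 to 0.103 for Rps6ka4. The fits where neither passed called 25 to 69 genes in all, against 186 with every library. Those where both passed called 122 to 766, so the losses were not particular to these 2 genes. Neither passed without the 3 wild-type libraries highest in muscle (log2 fold changes of 0.53 and 0.49, edgeR adjusted p = 0.172 and 0.206), with the muscle score as covariate (0.170 and 0.241) or with Y-linked expression as covariate (0.0814 and 0.117). Over all genes these fits called 35, 20 and 30. Y-linked genes summed to between 0 and 248 CPM in wild-type and between 0.444 and 218 CPM in Arf6-null tumors. The call of Rps6ka4 was also lost with upper-quartile scaling, with a filter of 10 CPM in 6 libraries and with no low-count filter.

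**Figure D5:**
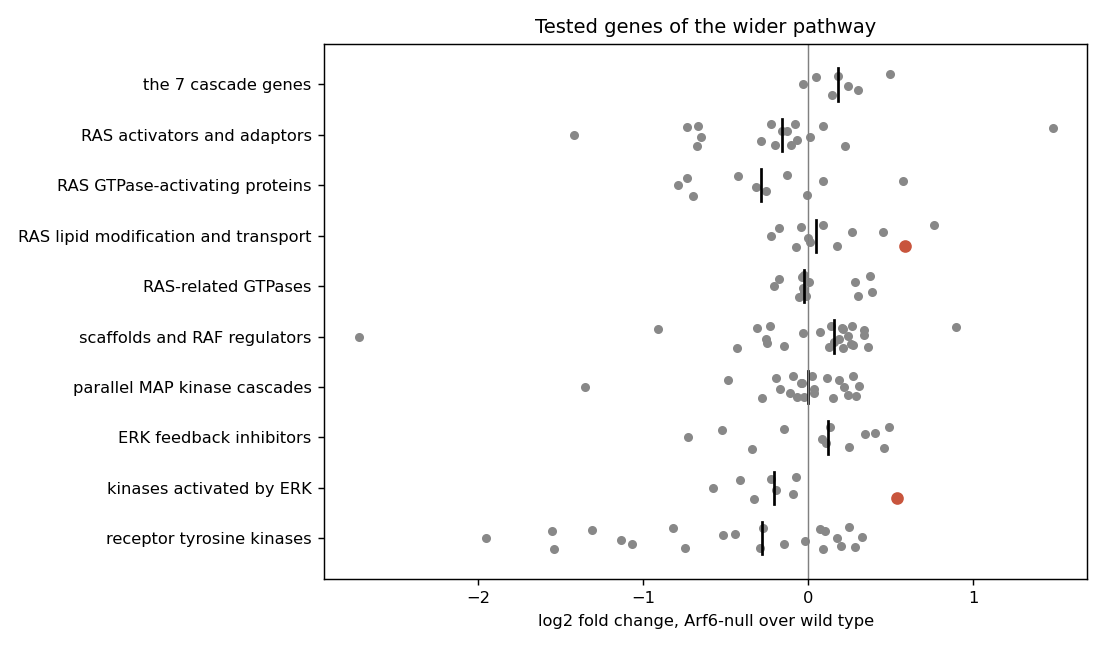
Log2 fold change, Arf6-null over wild type (x axis), of each tested gene of the 7 cascade genes and of the 9 lists (rows); red points passed at an edgeR adjusted p under 0.05, grey points did not, and black ticks are the medians of the rows. The 2 red points are Fntb at 0.59 and Rps6ka4 at 0.54.

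The other 7 lists had 0 calls by edgeR. Among 17 activators and adaptors, which load RAS with GTP or link it to receptors, 4 had a positive log2 fold change and the median was -0.16; 5 had an unadjusted edgeR p under 0.05, DESeq2 called 3 and limma-voom 1. Rasgrf1, a RAS exchange factor, was at 106 ± 87.0 CPM with Arf6 intact and 296 ± 52.3 CPM without Arf6 (edgeR adjusted p = 0.070), and the adaptor gene Gab1 at 24.5 ± 2.96 and 15.6 ± 4.73 CPM (edgeR adjusted p = 0.106). Rasgrf1 passed without the 3 wild-type libraries highest in muscle (edgeR adjusted p = 0.0181), but also without wild-type replicate 5 alone (0.00387). It did not pass without wild-type replicate 3 or 4 alone (edgeR adjusted p = 0.125 and 0.123) or with the muscle score as covariate (0.207). Wild-type values of Rasgrf1 reached 278 CPM, within the Arf6-null range of 244 to 386 CPM, while those of Gab1 did not overlap.

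GTPase-activating proteins, which return RAS to its inactive form, had a positive log2 fold change in 2 of 10 genes and a median of -0.29, with 3 genes at an unadjusted edgeR p under 0.05 and 1 called by DESeq2 and by limma-voom. Rasal2 was at 46.1 ± 11.4 and 26.6 ± 5.44 CPM with and without Arf6 (edgeR adjusted p = 0.0566), and Rasa1 at 213 ± 89.9 and 131 ± 22.99 CPM (edgeR adjusted p = 0.132). Of the 15 RAS-related GTPases 13 were tested, with a median of -0.02, 2 at an unadjusted edgeR p under 0.05, 1 called by DESeq2 and 0 by limma-voom. Ralb was at 80.4 ± 13.1 and 105 ± 16.2 CPM, and Rras at 74.1 ± 12.1 and 91.3 ± 15.4 CPM.

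Among 25 tested scaffolds and RAF regulators 16 were positive, with a median of 0.15; 10 had an unadjusted edgeR p under 0.05, DESeq2 called 4 and limma-voom 1. Ksr1, a scaffold that holds RAF, MEK and ERK together, was at 21.1 ± 4.63 CPM with Arf6 intact and 11.2 ± 3.36 CPM without Arf6, with no overlap (edgeR adjusted p = 0.0615). Cnksr1 was at 5.70 ± 8.81 and 0.857 ± 0.249 CPM, and its wild-type values ran from 0.437 to 23.4 CPM. Without the 3 wild-type libraries highest in muscle its log2 fold change turned from -2.72 to 0.06, and the fit with a muscle covariate also gave 0.06 (edgeR adjusted p = 0.964 and 0.983).

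Kinases of the parallel cascades had a median of -0.001 over 22 tested genes, with 3 at an unadjusted edgeR p under 0.05, 3 called by DESeq2 and 2 by limma-voom. Map3k7, which encodes the kinase TAK1, was at 87.5 ± 4.81 and 72.0 ± 2.96 CPM with no overlap (edgeR adjusted p = 0.0564; 0.0484 with upper-quartile scaling and 0.0400 with a filter of 10 CPM in 6 libraries, where it passed), and Map3k20 at 32.4 ± 5.72 and 23.1 ± 2.94 CPM (edgeR adjusted p = 0.0712). ERK feedback inhibitors, which ERK signalling itself induces, had a median of 0.12 over 12 tested genes, with 1 at an unadjusted edgeR p under 0.05 and 0 called by DESeq2 or limma-voom. Spred2 was at 80.7 ± 13.3 and 102 ± 21.7 CPM, and Spred3 at 61.0 ± 13.9 and 80.6 ± 20.3 CPM (edgeR adjusted p = 0.213 and 0.217).

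Receptor tyrosine kinases, which start the cascade, had a median of -0.28 over 22 tested genes, with 14 negative, 7 at an unadjusted edgeR p under 0.05, 2 called by DESeq2 and 1 by limma-voom. Kit was at 15.4 ± 5.27 CPM with Arf6 intact and 5.28 ± 2.64 CPM without Arf6 (edgeR adjusted p = 0.0629), and Fgfr3 at 1.39 ± 0.575 and 0.472 ± 0.254 CPM (edgeR adjusted p = 0.0744). Kit is also a marker of mast cells, whose summed levels are given above, and the part of mast cells in its difference was not tested.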

How the data were processed

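The authors deposited raw counts of reads per Ensembl gene for 12 tumor libraries made with a stranded mRNA kit. The submitters' processing notes name STAR 2.7.3a, featureCounts 1.6.3, DESeq2 1.26.0 and the build GRCm38; the release of the annotation, the strand setting and the treatment of multi-mapping reads were not given in the sources used here. Groups came from the genotype labels. Symbols and coordinates came from GENCODE M21, which held 55141 of 55487 identifiers.

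Genes were filtered with filterByExpr (minimum of 10 counts), TMM-scaled and tested by edgeR 4.0.16 (quasi-likelihood), and p-values were adjusted by Benjamini and Hochberg's method over 16225 genes. DESeq2 1.42.0 and limma 3.58.1 were alternatives. Log2 CPM used a prior count of 2. Tested on simulated counts for this comparison, with 200 of 16046 genes changed, edgeR called 50% of 2-fold and 81% of 4-fold changes, with 3 false calls among 134. The members and lists were chosen with earlier results of these data known. Besides the 7 genes, Arf6 and Cdkn2a, named genes were those of each list past the threshold (up to 4), or else the 2 with the smallest p, and the 3 genes most alike to each member. Cdkn2a was at 19.5 ± 4.74 and 17.1 ± 4.10 CPM (SD, n = 6 each, edgeR adjusted p = 0.592). Permutation tests used 100000 resamples, or every split in exact tests. Other scalings and filters, muscle and Y-linked covariates, thinning to the smallest total and leaving out libraries were also tried. The correlation of Braf and Map2k1 within genotypes and with each library left out was added after seeing the data.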

Additional observations from a re-analysis of the deposited data

Results flagged for a closer look

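Tumors that stood apart within a genotype were sought in 22 sets of 6 values: the 7 genes on the log2(CPM + 1) scale, the 3 ratios and the library totals, each in both genotypes. The test singled out 1 of them, where chance gives about 1 in 20. Arf6-null replicate 1 had a Mapk3 level of 8.33, and the other Arf6-null tumors lay between 7.79 and 7.98.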

How the results depend on the processing

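None of the 7 genes passed at an adjusted p under 0.05 in any of the 22 alternative fits, or at 0.1 in edgeR as first fitted. The lowest adjusted p was 0.0537, for Map2k1 with DESeq2. For Map2k1 edgeR gave an adjusted p of 0.0719 without wild-type replicate 2 and 0.0724 without Arf6-null replicate 6. With counts thinned to the smallest total it was 0.0926. Hras, Braf, Map2k1, Map2k2 and Mapk3 kept a positive log2 fold change in all 22. Araf turned to -0.0082 with upper-quartile scaling and to -0.0054 without wild-type replicate 1, and Nras to 0.0043 without a low-count filter. With each library left out, log2 fold changes were 0.08 to 0.19 for Hras, -0.05 to -0.002 for Nras, -0.0054 to 0.088 for Araf, 0.09 to 0.27 for Braf, 0.39 to 0.56 for Map2k1, 0.18 to 0.38 for Map2k2 and 0.16 to 0.32 for Mapk3. The 3 ratios kept their direction and stayed above 0.05 in p under every alternative, and 1 pair of the 7 genes was correlated under each alternative run. Cnksr1 turned to 0.064 without the 3 wild-type libraries highest in muscle and to 0.063 with the muscle score as covariate. The count over all genes, 186, was 1359 at an adjusted p under 0.1, 2215 with DESeq2, 931 with limma-voom, 30 with Y-linked expression as covariate, 35 without the 3 libraries, 20 with the muscle score, and 25 (without Arf6-null replicate 1) to 766 (without wild-type replicate 2) with each library left out. Upper-quartile scaling gave 87 higher and 123 lower, against 95 and 91. Calls in the pathway lists, 2, were 19 of 146 with DESeq2 (13%, against 11% of all genes), 9 of 141 with limma-voom (6.38%, against 5.74%), 1 (Fntb) without a low-count filter, 0 with Y-linked expression, 1 (Rasgrf1) without the 3 libraries and 0 with the muscle score. With upper-quartile scaling or a filter of 10 CPM in 6 libraries there were again 2, Fntb and Map3k7 in place of Rps6ka4. The cause was not tested. No paired analysis was possible because the labels give no pairs of wild-type and Arf6-null tumors.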
